A study of Mus musculus with 6 samples.

Results

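The transcription factor genes Fli1, Ets1, Etv6, Gabpa, Runx1, Mef2c, Nfe2 and Mafg were followed in mouse megakaryocyte progenitors with and without Scl. They are 8 of the 17711 genes named on the array, and all probes that the platform annotation assigned to them were taken, 19 of 46632. Of these, 10 probes, from 7 of the 8 genes, were detected on enough arrays to be tested, among 16122 tested probes in all. The cells were sorted megakaryocyte progenitors from bone marrow of mice aged 3 to 4 months, of the mixed strain 129SVxC57Bl/6, and their total RNA was amplified and hybridised to Illumina bead arrays. The deleted group was TGPF4-CRE;SCL fl/fl, hereafter fl/fl, with 3 arrays, and the control group was TGPF4-CRE;SCL wt/wt, hereafter +/+, with 3 arrays. Both groups carried the Cre transgene under the promoter of Pf4, a gene of the megakaryocyte lineage, and the series describes excision of Scl in the fl/fl cells as complete. Scl, gene symbol Tal1, encodes a basic helix-loop-helix factor of blood cell formation. Neither separate animals nor pools are named for the 3 samples of a group, and the surface markers of the sort are not named either, so p-values reflect only the spread among these samples, part of which may be technical. In these bulk samples a lower level can mean fewer cells of a kind or less RNA per cell, and these cannot be told apart.

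Megakaryocytes, the cells that shed platelets, are specified by factors that bind close together at the control regions of platelet genes. FLI1, ETS1, ETV6 and the alpha subunit of GA-binding protein, encoded by Gabpa, share the ETS DNA-binding domain. FLI1 and GABPA activate platelet genes, while ETV6 is mainly a repressor. RUNX1 binds DNA through its Runt domain with the partner CBFB, and MEF2C is a MADS-box factor that class IIa histone deacetylases can repress. NFE2, the p45 subunit of nuclear factor erythroid 2, pairs with a small Maf protein such as MAFG and is needed for platelet release.

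Levels are the authors' normalized log2 signals from the deposited value table, and differences are fl/fl minus +/+ on that log2 scale. A probe counted as detected on an array when its detection p was under 0.05, and a probe detected on at least 3 arrays was tested with limma across all 16122 such probes. Between 15183 and 16338 probes were detected per array. The megakaryocyte identity of the cells was checked with 9 tested marker genes of the 10 on the array, among them Itga2b, Gp9 and Pf4, with a summed linear signal of 39060 to 49070 on the fl/fl arrays and 47970 to 51110 on the +/+ arrays. The 9 did not move one way: 5 had a lower mean in fl/fl cells, 0 passed and the median difference was -0.07. Tal1 read 11.21, 9.85 and 11.45 on the fl/fl arrays, against 12.82, 13.27 and 13.29 on the +/+ arrays, a difference of -2.29 ± 0.37 (SE; limma adjusted p = 0.0399). Over 17 alternatives Tal1 had adjusted p-values of 0.00809 to 0.432, and it missed the threshold in 10 of them. The position of its single probe relative to the floxed stretch was not known here. The arrays were not uniform within groups. Xist, the X inactivation RNA, read 6.66, 6.95 and 10.55 on fl/fl arrays 1, 2 and 3, against 10.55, 10.90 and 9.25 on +/+ arrays 1, 2 and 3, so fl/fl arrays 1 and 2 stood apart. Its detection p on fl/fl arrays 1 and 2 was 0.067 and 0.020, near the limit. The part of the sex of the mice in the results was not tested. At an adjusted p of 0.05, 99 of 16122 tested probes passed, and 1618 of 16122 passed without +/+ array 3. Calls of members and list genes that change without that array are given with and without it. Of the markers of other cells, the 8 tested neutrophil and promyelocyte markers of the 10 on the array all had lower means in fl/fl cells, with a summed signal of 6163 to 7599 against 6873 to 11920 in +/+ cells. Of 9 B and T lymphocyte markers on the array only Cd79b and Vpreb1 were tested. Both had higher means in fl/fl cells, with a summed signal of 1036 to 1213 against 1001 to 1040 in +/+ cells. Cd79a, Pax5, Rag1, Cd3e, Cd3g, Cd3d and Il7r were not detected on enough arrays. The 3 monocyte and macrophage markers on the array, Cx3cr1, Irf8 and Adgre1, were not detected on enough arrays either. Erythroid markers had 5 tested genes of 8 and a summed signal of 1669 to 3537 in fl/fl cells against 1479 to 2258 in +/+ cells, with Slc4a1, Alas2 and Rhag below the limit. Mast cell and basophil markers had 5 tested genes of 8 and sums of 687.8 to 1039 in fl/fl cells and 718.9 to 888.9 in +/+ cells, with Ms4a2, Mcpt8 and Mcpt4 below it. The part of these other cells in the results on the factors was not tested.

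None of the 7 factors with a tested probe changed past the threshold when Scl was deleted, and signal for these 7 was above background in both groups. Of the 10 tested probes, 0 passed an adjusted p of 0.05, where 0.614% of all tested probes did, and 4 had an unadjusted p under 0.05, where 15.4% of all tested probes did. The 10 tested probes all had a lower mean in fl/fl cells, where 48.4% of all tested probes did, though Nfe2 and 1 Mef2c probe turned with median scaling of the non-normalized values. With no scaling between arrays 69.7% of all tested probes were lower in fl/fl cells, and their median difference was -0.087. The 10 had a median difference of -0.27 against 0.01 over all tested probes. All 10 were detected on each of the 6 arrays, so the detection limit did not choose them through either group. Several are probes of the same gene and all share the same arrays, so they are not independent. The groups did not overlap for 3 of the 10, against 18% of all tested probes in either direction and 8.62% with fl/fl lower. The differences of the 10 ran from -0.52 to -0.037, and the smallest difference in size among the 99 probes that passed was 0.536.

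**Figure D1:**
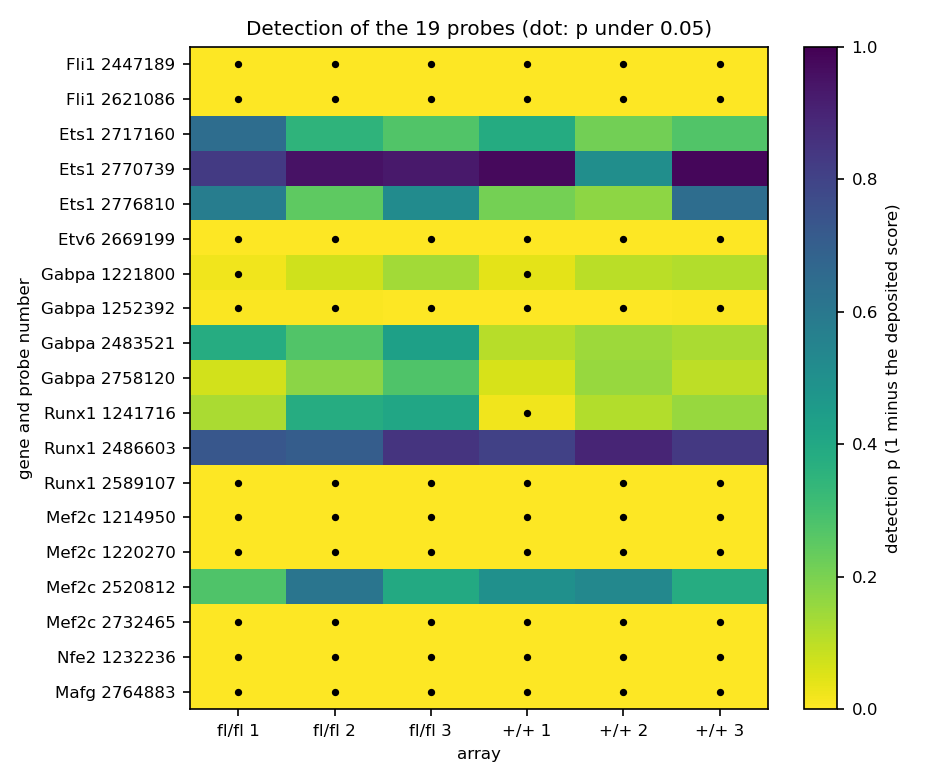
Detection of the 19 member probes. Rows are probes with their gene and probe number, columns are the 3 fl/fl and then the 3 +/+ arrays, colour is the detection p (1 minus the deposited score) and dots mark p under 0.05. The rows of Fli1, Etv6, Nfe2 and Mafg are dotted on every array, while the 3 Ets1 rows have no dot.

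Fli1, an ETS activator of platelet genes that is lost in a human platelet disorder, was measured by a pair of probes, both detected on all arrays. The brighter probe, ILMN_2447189, read 11.12, 10.83 and 10.98 on the fl/fl arrays, against 11.28, 11.37 and 11.42 on the +/+ arrays. Every fl/fl array lay below every +/+ array, with a gap of 0.163 between the groups. The mean was 10.98 ± 0.14 in fl/fl cells and 11.36 ± 0.07 in +/+ cells (SD, n = 3 each), a difference of -0.38 ± 0.10 (SE) with a 95% interval of -0.62 to -0.14, or 76.9% of the +/+ signal. Of the member probes it had the smallest limma p, but it did not pass (limma adjusted p = 0.168). The dimmer probe, ILMN_2621086, read 9.31, 9.01 and 8.999 on the fl/fl arrays and 9.54, 9.11 and 9.48 on the +/+ arrays. On this probe fl/fl array 1 lay above +/+ array 2, so the groups overlapped. The difference was -0.27 ± 0.14 (SE, limma adjusted p = 0.397), the same direction as the brighter probe. The difference of the brighter probe lay between -0.45 and -0.31 over all alternatives, and its adjusted p between 0.0438, with array weights, and 0.687. With array weights 1694 of all 16122 tested probes passed.

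Gabpa, which encodes the DNA-binding subunit of GA-binding protein, had 4 probes, of which 1 was tested. That probe, ILMN_1252392, read 7.16, 7.24 and 7.34 on the fl/fl arrays, against 7.53, 7.63 and 7.39 on the +/+ arrays. The groups did not overlap, but only 0.0509 separated fl/fl array 3 from +/+ array 3. The means were 7.25 ± 0.09 in fl/fl cells and 7.52 ± 0.12 in +/+ cells (SD, n = 3 each), a difference of -0.27 ± 0.10 (SE) with a 95% interval of -0.50 to -0.036 and a limma adjusted p of 0.270. The signal was dim, with detection p between 0.00125 and 0.00624, and with background correction by neqc the difference was -0.48 (adjusted p = 0.249, in a range of 0.0713 to 0.786 over the alternatives). With the Xist level as a covariate it was -0.16. The other 3 probes were near background. ILMN_1221800 was detected on fl/fl array 1 and +/+ array 1 only, and ILMN_2483521 and ILMN_2758120 on no array, with differences of 0.05, -0.16 and -0.05 that were not tested.

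Etv6, the ETS repressor, had 1 probe, ILMN_2669199, with 8.61, 9.10 and 8.76 on the fl/fl arrays and 8.89, 8.94 and 9.03 on the +/+ arrays. Fl/fl array 2 was the highest of the 6 and fl/fl array 1 the lowest, so the fl/fl arrays enclosed the +/+ arrays. The means were 8.82 ± 0.25 in fl/fl cells and 8.95 ± 0.07 in +/+ cells (SD, n = 3 each). The difference was -0.13 ± 0.13 (SE, limma adjusted p = 0.689), with a 95% interval of -0.43 to 0.17, and it lay between -0.27 without fl/fl array 2 and -0.022 without fl/fl array 1.

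Ets1, known for its role in lymphoid cells, was not well above background. Its 3 probes were detected on 0 of 6 arrays, with levels between 6.06 and 6.47 on the fl/fl arrays and between 5.97 and 6.52 on the +/+ arrays. The detection p lay between 0.248 and 0.951 on the fl/fl arrays and between 0.171 and 0.983 on the +/+ arrays. These probes thus give no difference to test, and they need not bound the level of Ets1 from above. An undetected probe can belong to a detected gene. The Mef2c probe ILMN_2520812 was detected on no array, while ILMN_2732465 of the same transcript record read between 11.15 and 12.27. Fli1 and Ets1 are neighbours on chromosome 9 with 0 protein-coding genes between them in the RefSeq table of GRCm38.p6, and in these cells signal was measured for Fli1 but not for Ets1.

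Runx1, the Runt-domain factor, had 1 tested probe of 3. ILMN_2589107 read 9.47, 9.06 and 8.93 on the fl/fl arrays, against 9.23, 9.30 and 9.49 on the +/+ arrays. Fl/fl array 1 lay among the +/+ arrays, and fl/fl arrays 2 and 3 below all of them. The means were 9.15 ± 0.28 in fl/fl cells and 9.34 ± 0.13 in +/+ cells (SD, n = 3 each), a difference of -0.19 ± 0.15 (SE, limma adjusted p = 0.588) with a 95% interval of -0.53 to 0.15. It was -0.35 without fl/fl array 1, -0.077 without fl/fl array 3, -0.11 without +/+ array 3 and -0.41 with the Xist level as a covariate. The probe of another transcript record, ILMN_1241716, was detected on +/+ array 1 only and ILMN_2486603 on no array, with untested differences of -0.22 and 0.05.

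Mef2c, the MADS-box factor, was covered by 4 probes, of which 3 were tested and did not behave alike. The brightest, ILMN_2732465, read 11.64, 11.43 and 11.15 on the fl/fl arrays, against 12.27, 11.84 and 11.67 on the +/+ arrays. The groups did not overlap, but fl/fl array 1 and +/+ array 3 were only 0.0330 apart. The means were 11.41 ± 0.25 in fl/fl cells and 11.93 ± 0.31 in +/+ cells (SD, n = 3 each), which gave the lowest difference of all 10 probes, -0.52 ± 0.18 (SE), with a 95% interval of -0.92 to -0.12 and 69.7% of the +/+ signal. It did not pass (limma adjusted p = 0.232). Without +/+ array 3 the difference was -0.65 and passed (limma adjusted p = 0.0462), and it was -0.35 without +/+ array 1 (adjusted p = 0.635). The range of its adjusted p over all alternatives was 0.0331 to 0.718. The probe ILMN_1220270, annotated to a separate cDNA record, read 9.54, 7.82 and 9.13 on the fl/fl arrays and 9.52, 9.65 and 8.64 on the +/+ arrays. Fl/fl array 2 alone was low, and without it the difference of -0.44 ± 0.42 (SE) turned to 0.068 (adjusted p = 0.668 with it and 0.960 without it, 0.279 to 0.979 over the alternatives). The third tested probe, ILMN_1214950, read 9.17, 8.49 and 8.36 on the fl/fl arrays and 8.68, 8.92 and 8.56 on the +/+ arrays, a difference of -0.046 ± 0.20 (SE, limma adjusted p = 0.944). Its sign changed without fl/fl array 2, fl/fl array 3 or +/+ array 2. The last probe, ILMN_2520812, was detected on no array. The mean of the 3 tested probes gave a difference of -0.33, against -0.52 for the brightest alone.

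Nfe2, which encodes the p45 subunit, had 1 probe, ILMN_1232236, with 12.50, 12.51 and 12.52 on the fl/fl arrays and 12.64, 12.53 and 12.47 on the +/+ arrays. The fl/fl arrays lay within the range of the +/+ arrays. The means were 12.51 ± 0.01 in fl/fl cells and 12.55 ± 0.08 in +/+ cells (SD, n = 3 each). The difference was -0.037 ± 0.089 (SE, limma adjusted p = 0.887), and its 95% interval of -0.24 to 0.17 spans a ratio of 0.846 to 1.12 between fl/fl and +/+ signal. Its sign changed without +/+ array 1 and with median scaling of the non-normalized values.

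Mafg, which encodes a small Maf partner of NFE2, had 1 probe, ILMN_2764883, with 9.93, 9.48 and 9.73 on the fl/fl arrays, against 10.46, 10.23 and 9.77 on the +/+ arrays. +/+ arrays 1 and 2 were above all fl/fl arrays, and +/+ array 3 lay below fl/fl array 1. The means were 9.71 ± 0.23 in fl/fl cells and 10.15 ± 0.35 in +/+ cells (SD, n = 3 each), a difference of -0.44 ± 0.18 (SE) with a 95% interval of -0.86 to -0.015 and a limma adjusted p of 0.307. Without +/+ array 3 it was -0.63 and passed (limma adjusted p = 0.0317), and without +/+ array 1 it was -0.28 (adjusted p = 0.751). All alternatives together gave adjusted p-values of 0.0317 to 0.785. The difference between the changes of Mafg and Nfe2, partners in one complex, was not tested.

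**Figure D2:**
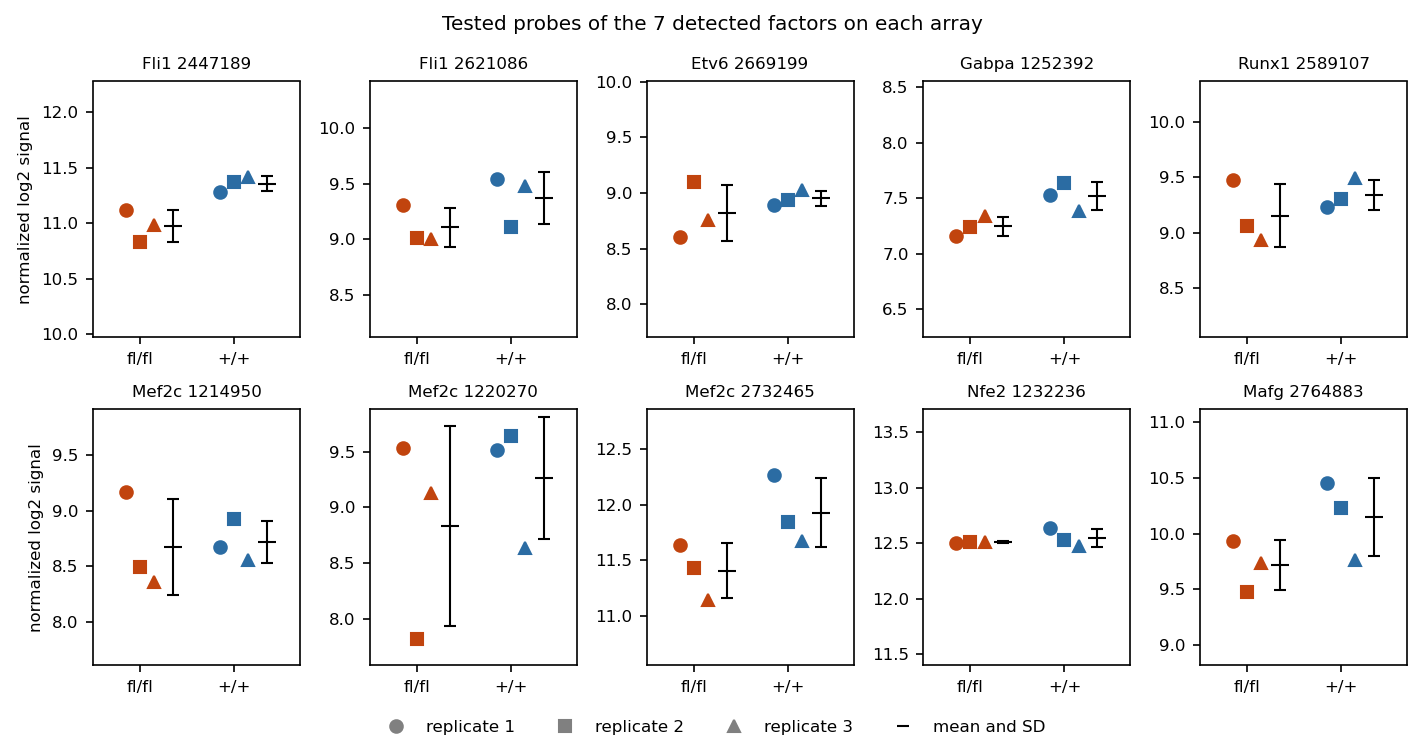
Level of the 10 tested probes on each array. Each panel is 1 probe, with normalized log2 signal on the y axis over the same span of values, fl/fl arrays on the left and +/+ arrays on the right, marker shape for the replicate and a black bar for mean and SD. The brighter Fli1 probe, the tested Gabpa probe and the brightest Mef2c probe have no overlap between groups, while Nfe2 sits near 12.5 on every array.

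The arrays differed in how they placed the tested probes together. Set against each probe's mean over the 6 arrays, the median deviation of the 10 was -0.01, -0.22 and -0.19 on fl/fl arrays 1, 2 and 3, against 0.13, 0.19 and 0.00 on +/+ arrays 1, 2 and 3. Fl/fl array 1 and +/+ array 3 were thus close together, and the other 4 arrays lay further apart by group. Over all tested probes the same median lay between -0.01 and 0.01 on every array. The number of the 10 below their own mean was 6, 9 and 9 on fl/fl arrays 1, 2 and 3, and 2, 1 and 4 on +/+ arrays 1, 2 and 3.

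**Figure D3:**
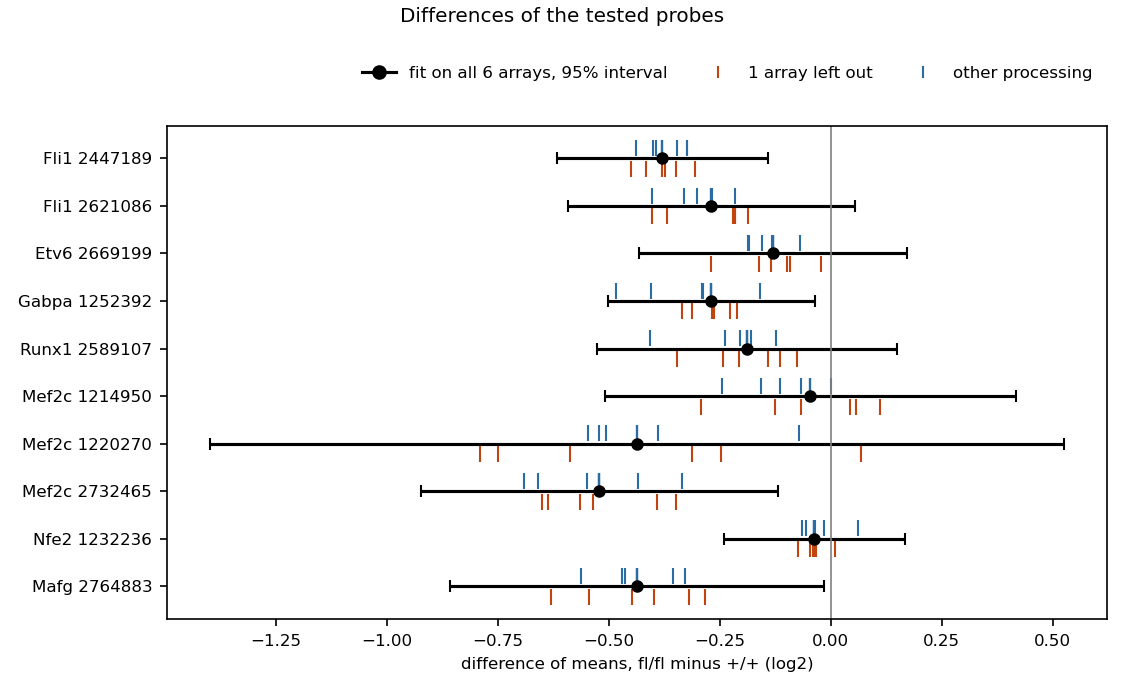
Differences of the 10 tested probes, fl/fl minus +/+ on the log2 scale. Black points and bars are the fit on all 6 arrays with its 95% interval, ticks below each bar leave out 1 array and ticks above use other processing. The bars of the brighter Fli1 probe, Gabpa, the brightest Mef2c probe and Mafg end below 0, and 2 Mef2c probes and Nfe2 have ticks on both sides of 0.

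Promoter windows were available from RefSeq (build GRCm38.p6) for 5 of the 8 members, Etv6, Gabpa, Runx1, Mef2c and Mafg, in 8 windows of 300 bases around annotated starts. They are shown for the members with the lowest unadjusted p that have one, and for Runx1, because the factors compared here bind such letters. Capitals mark, on either strand, CANNTG (the E-box of basic helix-loop-helix proteins such as SCL), GATAA (bound by GATA factors), CCGGAAG (an ETS site) and TGTGGT (a RUNX site), and no marked stretches overlap one another.
Gabpa, chr16:84834874-84835173, plus strand: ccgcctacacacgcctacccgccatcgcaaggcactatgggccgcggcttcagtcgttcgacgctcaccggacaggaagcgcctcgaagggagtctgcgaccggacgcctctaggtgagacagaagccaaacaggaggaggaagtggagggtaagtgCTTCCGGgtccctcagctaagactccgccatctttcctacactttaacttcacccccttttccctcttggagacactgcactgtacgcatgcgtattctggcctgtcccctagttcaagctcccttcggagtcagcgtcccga
Mafg, chr11:120633498-120633797, minus strand: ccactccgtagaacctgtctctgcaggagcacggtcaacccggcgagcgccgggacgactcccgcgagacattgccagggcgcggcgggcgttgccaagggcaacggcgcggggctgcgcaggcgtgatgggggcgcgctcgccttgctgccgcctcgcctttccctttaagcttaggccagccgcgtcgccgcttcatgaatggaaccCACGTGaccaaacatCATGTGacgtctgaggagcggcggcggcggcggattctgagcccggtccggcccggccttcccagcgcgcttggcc
Mef2c, first start, chr13:83503784-83504083, plus strand: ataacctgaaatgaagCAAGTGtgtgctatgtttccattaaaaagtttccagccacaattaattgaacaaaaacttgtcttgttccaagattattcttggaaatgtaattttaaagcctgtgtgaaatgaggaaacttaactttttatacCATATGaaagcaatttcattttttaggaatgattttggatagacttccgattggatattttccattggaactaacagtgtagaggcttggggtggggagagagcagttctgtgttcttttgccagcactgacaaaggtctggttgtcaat
Mef2c, second start, chr13:83523406-83523705, plus strand: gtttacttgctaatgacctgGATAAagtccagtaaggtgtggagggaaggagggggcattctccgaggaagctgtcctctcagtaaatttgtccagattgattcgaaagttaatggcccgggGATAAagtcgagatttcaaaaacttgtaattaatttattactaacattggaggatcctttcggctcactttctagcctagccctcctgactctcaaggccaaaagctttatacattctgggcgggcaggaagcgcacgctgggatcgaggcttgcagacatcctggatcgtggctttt
Runx1, upstream start, chr16:92826025-92826324, minus strand: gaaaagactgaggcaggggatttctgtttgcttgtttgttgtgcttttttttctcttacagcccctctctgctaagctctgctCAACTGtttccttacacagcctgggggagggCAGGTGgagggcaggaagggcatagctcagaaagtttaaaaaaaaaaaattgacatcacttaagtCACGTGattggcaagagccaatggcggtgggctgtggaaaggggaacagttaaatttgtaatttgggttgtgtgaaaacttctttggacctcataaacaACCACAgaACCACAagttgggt
Each is read 5′ to 3′ on the gene's strand. The Gabpa window held 1 ETS match and no other, so the gene of an ETS factor carries that letter string near its own start. The Runx1 window held 2 RUNX matches and 3 E-box matches. Mafg held 2 E-box matches, the first Mef2c window 2 and the second Mef2c window 2 GATAA matches. E-box letters were in 4 of the 8 member windows, against 72.3% of all 32851 windows of this length, so their presence does not set these genes apart. GATAA was in 1 of 8 against 25.4%, CCGGAAG in 1 of 8 against 8.86% and TGTGGT in 1 of 8 against 16.8%. The third Mef2c window held an E-box match, and the windows of Etv6 and of the second Runx1 start held none of the 4 motifs. A match describes letters only.

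Relatives and partners of the factors were described through 4 gene lists, using the brightest tested probe of each gene, of 8946 such genes. By that count 0.794% of all genes passed an adjusted p of 0.05, 16.4% had an unadjusted p under 0.05, the median difference over all genes was 0.02 and 45.6% had a lower mean in fl/fl cells. In the list of the other ETS genes with Gabpb1 and Gabpb2, partners of GABPA that have no ETS domain, 9 of 24 genes were tested, 0 passed, 2 had an unadjusted p under 0.05, 5 had a lower mean and the median difference was -0.06, or 0.03 without the detection limit. Etv3, an ETS repressor gene, averaged 7.98 ± 0.08 in fl/fl cells and 7.61 ± 0.19 in +/+ cells (SD, n = 3 each), a difference of 0.37 (limma adjusted p = 0.206). Etv5, which encodes a PEA3-type ETS factor, differed by 0.29 (adjusted p = 0.228) and Elf1, an ETS activator of blood cell genes, by -0.27 (adjusted p = 0.469). Without +/+ array 3, Etv3 at 0.47 and Elf1 at -0.47 passed (limma adjusted p = 0.0319 and 0.0292), with highest values of 0.728 and 0.892 over the alternatives. With array weights, where 1694 of all 16122 tested probes passed, Etv3 passed too, as did Etv5 (limma adjusted p = 0.0373). In the list of the other RUNX genes with Cbfb and corepressor genes, 3 of 6 genes were tested and 0 passed. The 3 had lower means, with a median of -0.24, and 0 had an unadjusted p under 0.05 in limma. Cbfb, the obligate partner of RUNX1, differed by -0.24 (adjusted p = 0.582), by -0.44 without +/+ array 3 and by 0.036 with the Xist level as a covariate. The corepressor genes Cbfa2t3, whose product is known as ETO2, and Cbfa2t2 differed by -0.64 and -0.11 (adjusted p = 0.374 and 0.674). Cbfa2t3 rested partly on single arrays, at -0.28 without fl/fl array 1 and -0.36 without +/+ array 3.

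The list of other MEF2 genes and class IIa histone deacetylases had higher means in fl/fl cells for its 5 tested genes of 7, with a median of 0.24. Of these, 0 passed in limma and 2 had an unadjusted p under 0.05. Hdac7, a class IIa deacetylase that represses MEF2 factors, read 9.70, 10.02 and 9.83 on the fl/fl arrays, against 8.92, 8.78 and 9.48 on the +/+ arrays. The groups did not overlap, and +/+ array 3 was the closest +/+ array to the fl/fl arrays. The difference was 0.79 ± 0.18 (SE, limma adjusted p = 0.117), and without +/+ array 3 it was 1.00 and passed (adjusted p = 0.00452, with 0.580 the highest over the alternatives). Hdac5 and Hdac4, of the same class, differed by 0.34 and 0.24 (adjusted p = 0.338 and 0.324), and Hdac5 passed without +/+ array 3 at 0.53 (limma adjusted p = 0.0151, highest 0.815). The mean of the 2 tested Hdac5 probes differed by 0.20, against 0.34 for the brighter alone. Hdac7 and Hdac5 also passed with array weights, where 1694 of all 16122 tested probes did. That setting gave the same +/+ array 3 the lowest weight, so it is not separate from leaving that array out. Mef2a and Mef2d themselves differed by 0.02 and 0.07, but their signals were dim. Mef2a averaged 6.96 in fl/fl and 6.94 in +/+ cells, and Mef2d 6.93 and 6.87. With detection p under 0.01 required on all arrays, 3 genes of the list were left, without Mef2a and Mef2d, and the median was 0.34. For the CNC and Maf relatives of NFE2 and MAFG, 4 of 11 genes were tested, 0 passed, 0 had an unadjusted p under 0.05 in limma and the median was 0.13. Nfe2l1, a CNC relative of Nfe2, Keap1, which controls the relative NRF2, and Bach1, a repressor that also pairs with small Maf proteins, differed by 0.15, 0.14 and 0.11 (adjusted p = 0.582, 0.553 and 0.763).

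Platelet genes known as targets of these factors were described through 3 more lists. For FLI1 and GABPA, 5 of 8 genes were tested, 0 passed, 2 had an unadjusted p under 0.05, 3 had a lower mean and the median difference was -0.07, or 0.02 with median scaling and -0.15 without +/+ array 3. All 5 are also among the 9 megakaryocyte markers used above, so the list and the markers are not separate readings. Ppbp, which encodes the precursor of a platelet chemokine, differed by -0.50 (limma adjusted p = 0.303), Gp5, a subunit of the von Willebrand factor receptor, by -0.14 (adjusted p = 0.513) and Itga2b, the integrin alpha IIb gene, by 1.11 (adjusted p = 0.317). Itga2b read 12.27, 12.28 and 11.82 on the fl/fl arrays, against 10.31, 10.38 and 12.36 on the +/+ arrays. +/+ array 3 was the highest of the 6, and without it the difference was 1.78 (limma adjusted p = 0.00133, highest 0.851 over the alternatives). Itga2b passed with array weights too, and so did Ppbp, with a lower mean in fl/fl cells (limma adjusted p = 0.0356). Under that setting 1694 of all 16122 tested probes passed. For RUNX1, in a list that holds Nfe2 itself and shares Pf4 with the one before, 6 of 8 genes were tested. Of these, 0 passed in limma, 1 had an unadjusted p under 0.05 and the 6 had lower means with a median of -0.19. The list does not separate activated from repressed targets. Its dimmest gene, Myh10, averaged 6.92 in fl/fl and 6.94 in +/+ cells, a difference of only -0.02. Prkcq, the protein kinase C theta gene, averaged 8.91 ± 0.13 in fl/fl cells and 9.22 ± 0.11 in +/+ cells (SD, n = 3 each) and did not pass (difference -0.32, limma adjusted p = 0.232). Plek, which encodes the kinase substrate pleckstrin, and Alox12, the platelet lipoxygenase gene, differed by -0.36 and -0.37 (adjusted p = 0.327 and 0.524). These are the brighter of 2 tested probes for each gene. With the mean of the probes of each gene the list median was -0.12. Without +/+ array 3 the difference of Alox12 was -0.11 (limma adjusted p = 0.800). For NFE2, 3 of 6 genes were tested, 1 passed and the median was -0.10. With detection p under 0.01 required on all arrays, 2 genes were left and the median was -0.72. The gene that dropped out was Rab27b, with dim means of 6.86 in fl/fl and 6.91 in +/+ cells. Selp, the gene of the granule adhesion protein P-selectin, fell to 7.91, 7.82 and 8.05 on the fl/fl arrays, against 9.01, 9.53 and 9.24 on the +/+ arrays, a difference of -1.34 ± 0.14 (SE, limma adjusted p = 0.00807). Its difference lay between -1.66 and -1.20 over the alternatives and its adjusted p between 0.00379 and 0.183; it missed the threshold with median scaling, with the replicate block, with the Xist level as covariate and without fl/fl array 1. Tbxas1, the thromboxane synthase gene, and Rab27b, a granule transport GTPase gene, differed by -0.10 and -0.06 (limma adjusted p = 0.742 and 0.871). Tbxas1 lay between -0.20 without fl/fl array 1 and -0.018 without fl/fl array 2, and Rab27b between -0.16 without +/+ array 3 and 0.10 with the Xist level as a covariate.

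**Figure D4:**
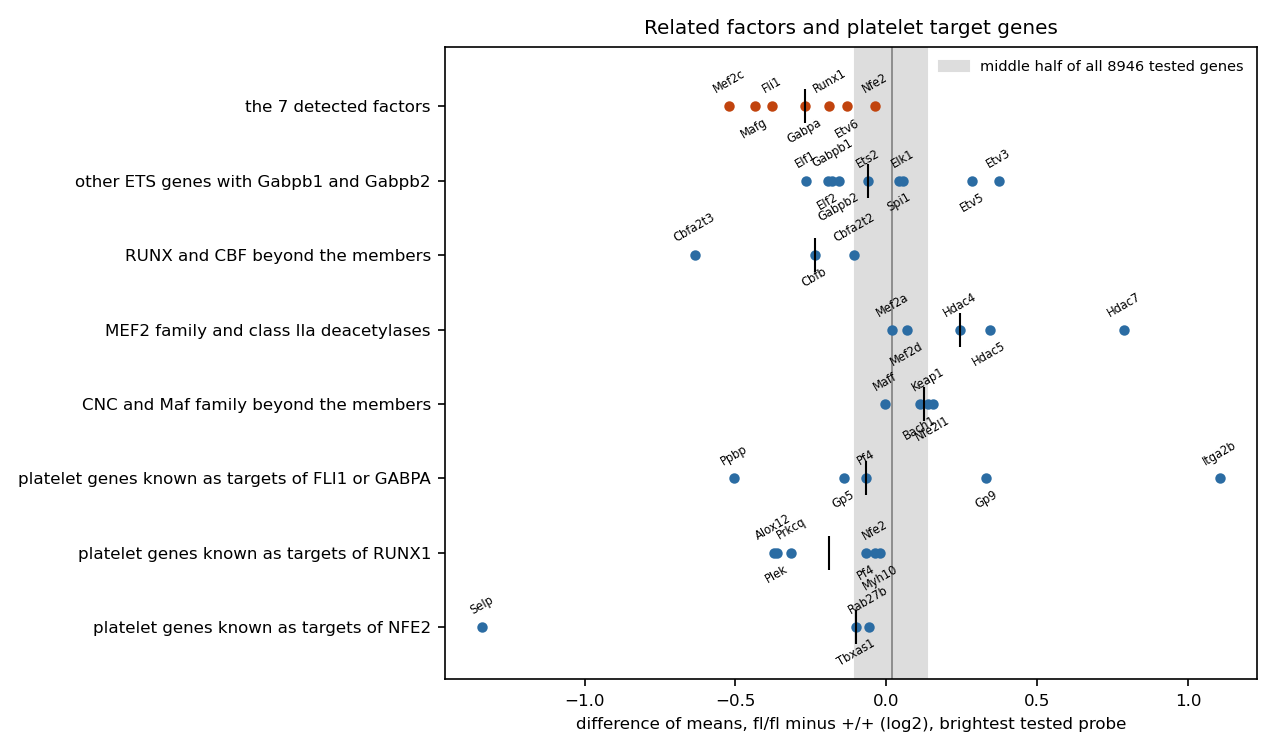
Differences of the brightest tested probe, fl/fl minus +/+ on the log2 scale, for the 7 detected factors (top row) and the genes of the 7 lists. Points are genes, black ticks list medians, and the grey band the middle part of all 8946 tested genes, from the lower to the upper quartile. Selp lies at -1.34, Itga2b at 1.11 and the members between -0.52 and -0.04.

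The gene whose levels over the 6 arrays followed each member most closely was named by the highest Pearson r among 8945 other genes. For Fli1 it was Arhgap29 (r = 0.993), for Gabpa G3bp2 (r = 0.995), for Mef2c Cdc45 (r = 0.992) and for Mafg Taok3 (r = 0.998). For Etv6 it was Rcvrn (r = 0.986), for Runx1 Nipsnap2 (r = 0.988) and for Nfe2 Cdk2ap1 (r = 0.991). These are descriptions over 6 arrays of 1 set of samples, and between 11 and 101 genes had an r above 0.95 with a given member. The named genes did not pass either, with differences between -0.77 for Taok3 and -0.04 for Cdk2ap1.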

How the data were processed

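The sources were 6 Illumina bead arrays, grouped and numbered by sample titles. The deposited non-normalized table holds log2 signals, as the values show, with array medians from 6.43 to 6.65. The deposited detection score rises with signal (lowest rank correlation 0.997), so 1 minus the score served as detection p. The authors' normalized log2 values, the main source here, have identical quantiles on all arrays and differ from the first table after quantile normalization by at most 0.0865; no other step is known. Limma, with no version, is named per the submitters' processing notes. Forcing equal quantiles removes any common shift of most genes.

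Probes detected (p under 0.05) on 3 or more arrays were fitted by probe with lmFit and eBayes of limma 3.58.1 in R 4.3.3, two-sided, without covariates, with Benjamini-Hochberg adjustment over all 16122 and a threshold of 0.05; an adjusted p given for an alternative comes from the same limma fit under that setting. The annotation gave 1 symbol for 29976 probes and several for 10, and the other 16646 are unnamed here. All 8 members matched by symbol in the RefSeq table. Of each list, genes past the threshold and the 3 with the smallest p were named, and the gene most correlated with each member. Alternatives were neqc (offset 16), no or median scaling, other detection filters, a trend and robust prior, array weights, a replicate block, gene-level values, Xist as covariate, a threshold of 0.1 and leaving out each array. Members and lists were chosen with earlier results of these data known. The labels name no batch.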

Additional observations from a re-analysis of the deposited data

How the results depend on the processing

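With 3 arrays a group, the number of arrays limits every value. The count of 99 probes past the threshold was 214 at an adjusted p of 0.1, 28 with no scaling between arrays, 2 with median scaling (both higher in fl/fl, against 71 higher and 28 lower in the fit of the report), 1694 with array weights and 1 with the Xist level as covariate; leaving out 1 array gave 11 to 1618, the highest without +/+ array 3 and the lowest without +/+ array 2. It was 73 with neqc. The cause of these moves was not tested; array weights gave +/+ array 3 the lowest weight, 0.412. Of the 10 tested member probes, 3 passed with array weights (the brighter Fli1 probe, the brightest Mef2c probe and Mafg), where 1694 of all 16122 tested probes did. Leaving out 1 array gave 0 to 2 of the 10, the highest without +/+ array 3, where 1618 of all 16122 did. Under every other alternative the count was 0. The sign of the Mef2c probe ILMN_1214950 turned with median scaling (7.9e-04) and without fl/fl array 2 (0.044), fl/fl array 3 (0.11) or +/+ array 2 (0.056), in a range of -0.29 to 0.11 with 1 array left out. The Mef2c probe ILMN_1220270 turned without fl/fl array 2 (0.068, range -0.79 to 0.068), and Nfe2 with median scaling (0.061) and without +/+ array 1 (0.0085, range -0.073 to 0.0085). The other 7 member probes kept their direction under every alternative in which they were tested. Deviations of same-numbered arrays from their group means correlated at 0.112, -0.328 and -0.221 for numbers 1, 2 and 3. Those of differently numbered arrays correlated between -0.193 and 0.339. With 3 arrays a group, these values cannot settle whether the replicate numbers pair the arrays. With the replicate number as a block, 3 probes passed, none of them a member. Of 119 list medians under alternatives, 19 moved by more than the spread between replicates and 4 changed sign: the list of other ETS genes with Gabpb1 and Gabpb2 without the detection limit (0.028) and with the Xist covariate (0.0099), and the FLI1 and GABPA targets with median scaling (0.022) and without +/+ array 1 (0.038).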
